A study of Mus musculus with 6 samples.

Results

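The genes described here are 50 genes of the Myc transcription factor network and of ribosome production, measured by RNA sequencing in mouse colonic organoids. They were picked by gene symbol, according to their role, from the 25067 rows of the deposited table. The choice was made with earlier results of these data known. Each of the 50 had a row, and each passed the filter used for testing, a mean normalized count of at least 10. Sorted by role, 5 belong to the Myc network, 6 to RNA polymerase I and its factors, 7 to the core of the small nucleolar ribonucleoproteins (snoRNPs), 6 are abundant or regulatory nucleolar proteins, 16 act on the small ribosomal subunit and 10 on the large one. A normalized count is the number of reads on a gene divided by 1 scaling factor per library, without correction for gene length, so values were compared between libraries for the same gene and not between genes.

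The organoids were grown from colonic crypts of C57BL/6 mice aged 8 weeks. All 6 libraries share a single genotype, with floxed alleles of both atypical protein kinase C (aPKC) genes, Prkci and Prkcz, and a CreERT2 recombinase under the Villin promoter, which is active in the intestinal epithelium. In 3 libraries (4-OHT) Cre was switched on with 4-OH-Tamoxifen at passage and RNA was taken 3 days later, while the other 3 (vehicle) received ethanol and are called wild type in the labels although they carry the floxed alleles and Cre as well. None of the 6 libraries lacks Cre or the floxed alleles, so loss of aPKC, Cre activity and 4-OHT itself cannot be told apart. The labels do not say whether libraries of a group came from separate animals or cultures, and p-values therefore measure the spread between these libraries.

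Ribosome production begins in the nucleolus, where RNA polymerase I copies the ribosomal DNA into a long precursor RNA. Box C/D snoRNPs methylate that precursor, box H/ACA snoRNPs convert some of its uridines to pseudouridine, and a large set of assembly factors cuts, folds and clothes it with ribosomal proteins to give the small and the large subunit. Myc, paired with Max, activates many of these genes, and proteins of the Mxd family compete for Max and repress the same kind of promoter. In the intestine, Myc is a target of Wnt signalling and is most active in the proliferative cells of the crypt.

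The libraries held between 15804709 and 26957612 reads, and the 50 genes took between 0.57% and 0.71% of them. Of the targeted genes, Prkcz fell from 912.5 ± 37.9 (SD, n = 3) to 281 ± 13.6 (SD, n = 3) and Prkci from 3519.7 ± 86.9 to 3021 ± 132 (n = 3 each), with log2 fold changes of -1.70 (SE 0.08) and -0.22 (SE 0.05). All 10 colonic epithelial markers examined, among them Epcam, Vil1 and Cdx2, had reads in each library, with summed levels of 10188 to 10515 RPM (a library's reads on the listed genes, scaled to its total) in vehicle and 13011 to 14044 in 4-OHT libraries. All 10 proliferation genes examined, among them Mki67, fell past the threshold, by 0.46 to 1.02 on the log2 scale. Of all tested rows 21.0% fell. Markers of other cells stood out in 4-OHT replicates 2 and 3. A list of 8 Paneth cell and ileal genes summed to 35.8, 49.97 and 39.4 RPM in the vehicle libraries. In 4-OHT replicates 1, 2 and 3 it summed to 54.8, 107 and 100.5 RPM. Its largest part in each library was Ang4, with normalized counts of 478, 610 and 499 in vehicle and 855, 994 and 1106 in 4-OHT libraries. Normalized counts of Defa21, Defa24, Mptx2, Fabp6 and Reg3g reached at most 4.26 in vehicle libraries and 4.13 in 4-OHT replicate 1. They ran from 24.9 to 376 in 4-OHT replicate 2 and from 23.9 to 200 in 4-OHT replicate 3. Itln1 and Lyz1 overlapped between the groups. A list of 3 immunoglobulin genes had 0 reads in each vehicle library against 1, 204 and 62 reads in 4-OHT replicates 1, 2 and 3. Further lists held 5 smooth muscle, 8 fibroblast, 4 vessel and 6 leukocyte genes. They summed to at most 5.57, 23.0, 0.51 and 11.3 RPM in any library. The smooth muscle, fibroblast and vessel sums were highest in 4-OHT replicate 3. Of the fibroblast genes, Col1a2, Col3a1, Dcn and Lum had 0 reads in vehicle libraries and 4-OHT replicate 1. Col3a1 had normalized counts of 6.22 and 113.8 in 4-OHT replicates 2 and 3. Col1a1, Pdgfra, Pdgfrb and Vim had reads in both groups. The median of the members in 4-OHT replicate 1 alone is therefore also given below.

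In 4-OHT organoids, more of the 45 ribosome production members fell than rose (21 against 2), by modest amounts, while the 2 of the 5 Myc network members that passed the threshold, Mycn and Mxd4, rose. Of the 50 members, 21 fell and 4 rose past an adjusted p of 0.05 (limma-trend, Benjamini-Hochberg over 13210 rows), against 21.0% of all tested rows that fell and 22.7% that rose. In percent, 42.0% of the members fell and 8.00% rose, and 25 did not pass the threshold. Since the members were chosen with earlier results of these data known, these shares are a description only. The median log2 fold change of the members was -0.13, against -0.01 over all tested rows. For 22 members the 3 values of the 4-OHT libraries all lay below those of the vehicle libraries (25.3% of all tested rows), and for 6 they all lay above (26.8%). Because nearly all members are well expressed, with 49 of 50 at a mean normalized count of at least 500, the shares were also taken over the 6779 rows at that level, a limit set after the values were seen: 23.7% of these rows fell and 31.9% rose. Of all 5765 calls 52.0% were rises. With each library scaled to the same total 36.9% of 6007 calls were, with 29 members then lower and 3 higher. In these bulk samples, fewer cells of a type and less RNA per cell cannot be told apart.

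The falls were small. Those past the threshold ran from -0.16 (Wdr43) to -0.45 (Rrp1b) on the log2 scale, and none of the 21 exceeded 0.5, a size that 7.51% of all tested rows passed as falls and 14.2% in either direction, together with the adjusted p. The 2 members beyond 0.5 were both rises, Mycn and Mxd4. Of the 21 falls, 10 (Polr1a, Polr1b, Nop56, Ncl, Nolc1, Gnl3, Utp20, Rrp12, Nop14 and Rrp1b) passed in each of the 17 alternative analyses. The other falls did not hold throughout. Fbl, Gar1, Npm1, Mybbp1a, Ddx21, Heatr1 and Noc2l each lost the threshold in 1 alternative. Bms1 lost it in 2, Wdr43 in 3, Rcl1 in 4 and Dkc1 in 5. The alternative without 4-OHT replicates 2 and 3 left a single 4-OHT library, whose spread was taken from the vehicle libraries. In that library the median log2 difference of the 50 members from the vehicle mean was -0.08, against -7.2e-05 over all tested rows.

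**Figure D1:**
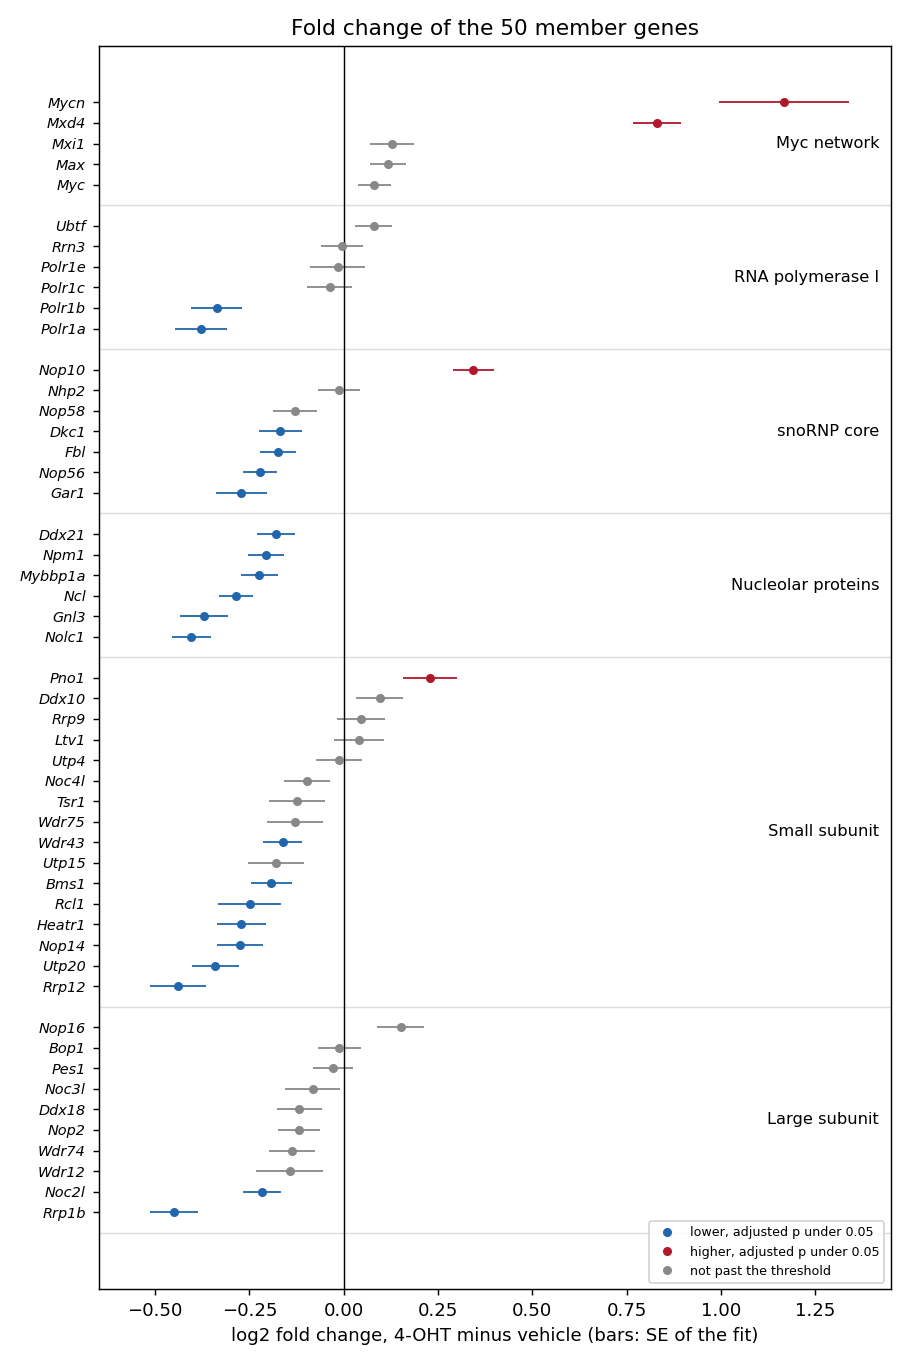
Log2 fold change of 4-OHT over vehicle for each of the 50 genes, sorted by role, as points with the standard error of the limma fit as bars. Blue points (21) passed the threshold as falls, red points (4) as rises and grey points (25) did not pass; Mycn and Mxd4 lie far to the right, and each of the 6 nucleolar proteins lies to the left of 0.

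The canonical binding site of Myc with Max is the E-box CACGTG, which reads the same on both strands. It was looked up in promoter windows from RefSeq (build GRCm38.p6, 250 bases before to 50 after the annotated start), which matched 45 of the 50 members by symbol. Myc itself, Fbl, Npm1, Bop1 and Rrp12 had no window and were not searched. At least 1 window held the site in 12 of the 45 matched genes (26.7%). The site was in 11.7% of 10057 tested genes and 8.09% of 27025 genes in the whole RefSeq table. Of the 56 windows of the members 21.4% held it, against 9.82% of 12831 windows of tested genes and 7.15% of windows in the whole table. Among members that fell it was in 3 of 18 (16.7%), and among those that did not pass the threshold in 7 of 23 (30.4%). Of the 4 members that rose, 2 held it. The sites of the 5 members that changed and held one are printed so that the letters around the motif can be read beside the measured changes, together with that of Max itself. The capitals mark the E-box, and each line runs 5′ to 3′ on the strand of the gene.
Max: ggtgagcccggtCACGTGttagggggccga
Mxd4: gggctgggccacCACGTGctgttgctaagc
Pno1: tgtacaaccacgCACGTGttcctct
Mybbp1a: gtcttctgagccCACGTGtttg
Utp20: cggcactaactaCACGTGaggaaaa
Wdr43: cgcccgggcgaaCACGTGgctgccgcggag

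These stretches lie at chr12:76962234-76962263 (minus strand) for Max, chr5:34187912-34187941 (minus) for Mxd4, chr11:17211540-17211564 (minus) for Pno1, chr11:72441355-72441376 (plus) for Mybbp1a, chr10:88826765-88826789 (minus) for Utp20 and chr17:71616220-71616249 (plus) for Wdr43, in GRCm38. In the GENCODE vM21 annotation the E-boxes of Pno1, Mybbp1a, Utp20 and Wdr43 lie in an untranslated exon, and those of Max and Mxd4 lie upstream of the annotated transcripts. The site of Mxd4 begins 219 bases before the start, whereas those of Wdr43, Pno1, Utp20 and Mybbp1a begin 17, 37, 37 and 40 bases after it. A matched sequence is a description of the window, and binding was not measured here.

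Within the Myc network, the transcript of Myc itself showed little difference, while its relative Mycn and its antagonist Mxd4 rose. Myc had normalized counts of 4227, 4122 and 4272 in vehicle replicates 1, 2 and 3 and 4522, 4542 and 4290.4 in 4-OHT replicates 1, 2 and 3. Each 4-OHT value lay above each vehicle value, but by a narrow margin, and the log2 change of 0.08 (SE 0.04, 95% interval -0.01 to 0.17) missed the threshold, with adjusted p = 0.15 by limma. Max, the obligate partner of Myc, had 2572, 2600 and 2763 in vehicle and 2934, 2868 and 2808 in 4-OHT libraries. Here too the groups did not overlap, and a log2 change of 0.12 with SE 0.05 (adjusted p = 0.051, limma) fell just short of the threshold, which it passed in 3 of the 17 alternatives.

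Mycn, which encodes N-Myc, a Myc relative typical of embryonic and progenitor tissue, was the weakest of the 50 in reads, with 62 to 171 reads per library. Its normalized counts were 60.6, 77.3 and 75.1 in vehicle and 167, 125 and 195 in 4-OHT libraries. The groups were well apart, 4-OHT replicate 2 being the lowest of its group, at a log2 change of 1.17 with SE 0.17 (adjusted p = 1.5e-05, limma). Mxd4, which pairs with Max and represses transcription and is known from differentiating cells, had 693, 717 and 685 in vehicle and 1285, 1152 and 1298 in 4-OHT libraries. It went from 698.5 ± 16.6 in vehicle to 1245 ± 81.0 in 4-OHT libraries (mean and SD, n = 3), a log2 change of 0.83 with SE 0.06 (adjusted p = 3.7e-09, limma). Mxi1, another Max-binding repressor, had 1307, 1330.1 and 1246 in vehicle and 1310.0, 1446 and 1493.5 in 4-OHT libraries. Its groups overlapped, since 4-OHT replicate 1 lay within the vehicle range, and 0.13 (SE 0.06, limma adjusted p = 0.088) did not pass. The directions of all 5 were the same in each of the 17 alternatives, with Myc between 0.005 and 0.11.

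The transcripts of the 2 largest subunits of RNA polymerase I fell, whereas the other members of this group did not pass the threshold. Polr1a, the catalytic subunit, had 1455, 1557 and 1642 in vehicle and 1264, 1055 and 1272 in 4-OHT libraries. Polr1b, the second largest subunit, had 1093, 1128 and 1235 in vehicle and 973, 835 and 928 in 4-OHT libraries. For both genes each 4-OHT value was below each vehicle value and 4-OHT replicate 2 was the lowest. The log2 fold changes were -0.38 (SE 0.07, limma adjusted p = 1.7e-04) for Polr1a and -0.34 (SE 0.07, limma adjusted p = 4.3e-04) for Polr1b.

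The remaining RNA polymerase I genes gave narrow intervals around 0. Polr1c, a subunit shared with RNA polymerase III, had 1860.3, 1778 and 1862 in vehicle and 1882, 1873 and 1616 in 4-OHT libraries. The only low value was that of 4-OHT replicate 3, and the 95% interval of the log2 fold change ran from -0.16 to 0.09. Polr1e, another subunit of the enzyme, had 527, 494 and 522 in vehicle and 514.5, 496.5 and 515 in 4-OHT libraries, with an interval from -0.17 to 0.14. Rrn3, which carries the polymerase to the promoter, had 1152, 1153 and 1133 in vehicle and 1151, 1101 and 1175 in 4-OHT libraries, with an interval from -0.12 to 0.11. Ubtf, the factor that keeps ribosomal DNA open, had 3124, 3119.8 and 3455 in vehicle and 3372, 3385 and 3479 in 4-OHT libraries, with an interval from -0.02 to 0.18. For each of these 4 genes the groups overlapped, and limma adjusted p-values lay between 0.20 and 0.95.

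**Figure D2:**
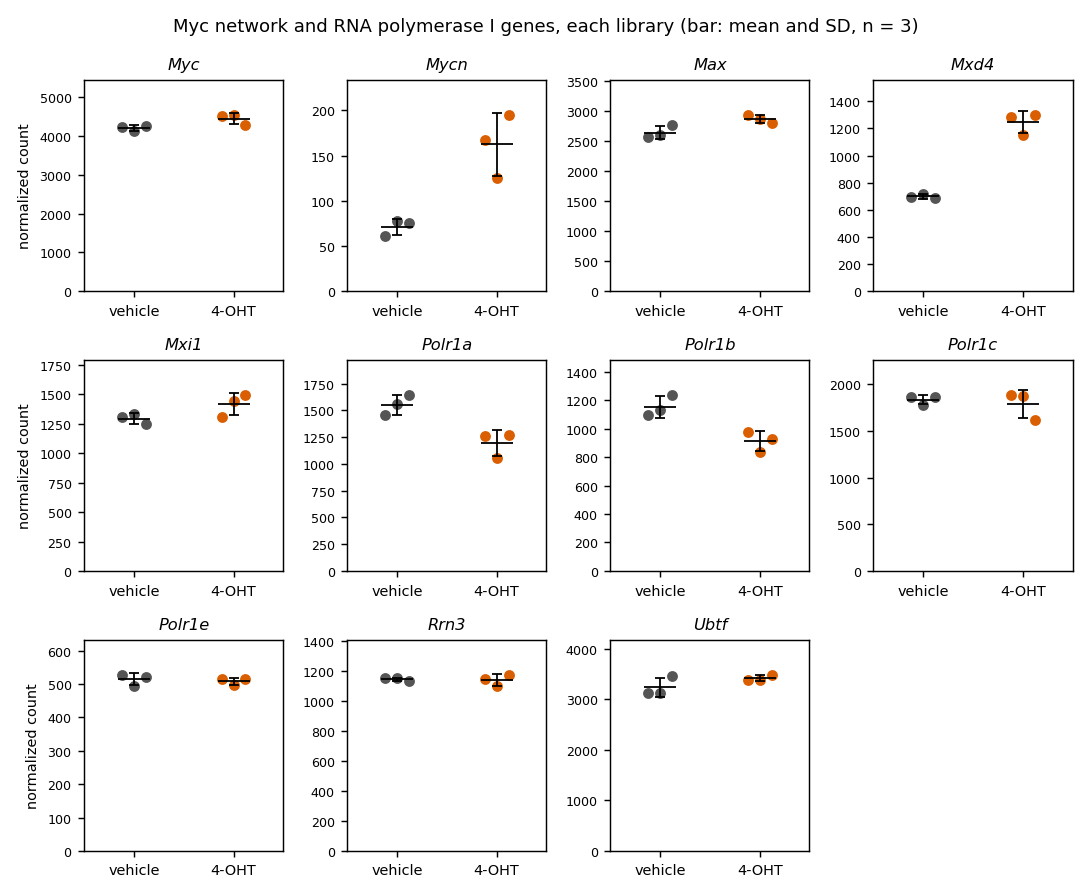
Normalized counts of the 5 Myc network genes and the 6 RNA polymerase I genes in each library, one panel per gene with an axis from 0; points are libraries, bars the mean and SD of 3. The 4-OHT points of Mycn and Mxd4 stand clear above the vehicle points, those of Polr1a and Polr1b below, and the Myc points of both groups lie between 4122 and 4542.

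Of the 7 snoRNP core genes, 4 fell and 1 rose (57.1% and 14.3%, against 21.0% and 22.7% of all tested rows). In the box C/D particle, the methyltransferase gene Fbl had 4147, 4223 and 4552 in vehicle and 3943, 3836 and 3665 in 4-OHT libraries. This was a shift of -0.17 on the log2 scale (SE 0.05, limma adjusted p = 0.0061) without overlap of the groups, and the scaffold gene Nop56 fell by 0.22 (limma adjusted p = 5.9e-04), while its partner Nop58 did not pass (-0.13, limma adjusted p = 0.078).

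The box H/ACA particle was split, although its 4 proteins work as a single unit. Nop10 rose, from 1586, 1584 and 1731 in vehicle to 2174, 2066 and 1982 in 4-OHT libraries, a log2 change of 0.34 with SE 0.05 (adjusted p = 3.7e-05, limma). Gar1 fell, from 1156, 1119 and 1330.5 to 1053, 962 and 965, a log2 change of -0.27 with SE 0.07 (adjusted p = 0.0029, limma). Nhp2 had 3005, 3036 and 3563 in vehicle and 3212, 3173 and 3108 in 4-OHT libraries, overlapping groups with a 95% interval from -0.13 to 0.11. Dkc1, the pseudouridine synthase, fell by 0.17 (limma adjusted p = 0.024), but it lost the threshold in 5 of 17 alternatives, among them those without vehicle replicate 2 (limma adjusted p = 0.052), vehicle replicate 3 (0.12), 4-OHT replicate 2 (0.089) and 4-OHT replicate 3 (0.073).

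All 6 nucleolar proteins fell, and for each of the 6 the 4-OHT values lay below the vehicle values. The shares over all tested rows were 21.0% and 25.3%. Nolc1, whose product shuttles between nucleolus and cytoplasm, had 3069, 3229 and 3418 in vehicle and 2560.1, 2384 and 2396 in 4-OHT libraries. It went from 3239 ± 174 in vehicle to 2447 ± 98.3 in 4-OHT libraries (mean and SD, n = 3), a log2 change of -0.40 with SE 0.05 (adjusted p = 2.5e-06, limma). Gnl3, or nucleostemin, a nucleolar GTPase abundant in stem and cancer cells, had 1465, 1456 and 1715 in vehicle and 1209.8, 1140.2 and 1225 in 4-OHT libraries, a log2 change of -0.37 with SE 0.06 (adjusted p = 9.5e-05, limma).

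The 2 nucleolar transcripts with the most reads, Npm1 and Ncl, moved the same way. Npm1, the nucleolar chaperone nucleophosmin, had 19315, 20933 and 21726 in vehicle and 18317, 18203 and 17166 in 4-OHT libraries, a fall of 13.4% between the means and a log2 change of -0.21 with SE 0.05 (adjusted p = 0.0016, limma). Ncl, the RNA-binding protein nucleolin, fell by 18.1%, from 20223 ± 1118 in vehicle to 16571 ± 275 in 4-OHT libraries (mean and SD, n = 3), a log2 change of -0.29 with SE 0.05 (adjusted p = 3.7e-05, limma). Ddx21, an RNA helicase, changed least in this group, from 5346, 5628 and 5939 to 5301, 4697 and 4942, a log2 change of -0.18 with SE 0.05 (adjusted p = 0.0075, limma) in which 4-OHT replicate 1 lay just below the lowest vehicle value. Mybbp1a, a nucleolar protein that binds transcription factors and whose E-box is printed above, fell by 0.22 (limma adjusted p = 9.8e-04). Npm1 has processed pseudogenes, and how reads shared with such copies were counted is not given in the sources used here.

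Among the 16 small subunit genes, 7 fell, 1 rose and 8 did not pass the threshold. The falls were 43.8% and the rises 6.25%, against 21.0% and 22.7% of all tested rows. The falls ran from Wdr43 (-0.16) and Bms1 (-0.19) over Rcl1 (-0.25), Heatr1 (-0.27) and Nop14 (-0.27) to Utp20 (-0.34) and Rrp12 (-0.44). Rrp12, an export factor of pre-ribosomes, had 962, 916.5 and 1021 in vehicle and 798, 645 and 701 in 4-OHT libraries. The groups did not overlap, 4-OHT replicate 2 being lowest, and the log2 change was -0.44 with SE 0.08 (adjusted p = 8.4e-05, limma). Utp20, a large scaffold of the small subunit processome whose E-box is printed above, had 1428, 1435 and 1490 in vehicle and 1266, 1061 and 1120 in 4-OHT libraries, a log2 change of -0.34 with SE 0.06 (adjusted p = 2.0e-04, limma).

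Bms1, the GTPase of the processome, had 2221, 2127 and 2116 in vehicle and 2038, 1829.5 and 1797 in 4-OHT libraries, a log2 change of -0.19 with SE 0.05 (adjusted p = 0.0075, limma) that did not pass without 4-OHT replicate 3 (limma adjusted p = 0.051). Utp4, the least changed of the group, had 1278, 1251 and 1407 in vehicle and 1379, 1226 and 1295 in 4-OHT libraries, overlapping groups with a 95% interval from -0.14 to 0.12. Pno1, which holds the 3′ end of the small subunit RNA until its last cut, went the other way, from 547 ± 24.1 in vehicle to 641 ± 27.2 in 4-OHT libraries (mean and SD, n = 3), a log2 change of 0.23 with SE 0.07 (adjusted p = 0.013, limma). Pno1 did not pass with each library scaled to the same total (limma adjusted p = 0.081), without vehicle replicate 2 (0.073), without 4-OHT replicate 2 (0.056) or without both 4-OHT replicates 2 and 3 (0.17). Wdr43 did not pass without vehicle replicate 2 (0.069) or 4-OHT replicate 3 (0.097), and Rcl1 did not pass without vehicle replicate 3 (0.17), 4-OHT replicate 2 (0.066) or 4-OHT replicate 3 (0.062). The other 7 small subunit genes, Wdr75, Utp15, Tsr1, Noc4l, Rrp9, Ltv1 and Ddx10, lay between -0.18 and 0.09 on the log2 scale.

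Of the 10 large subunit genes, 2 passed the threshold, both as falls, a share close to the 21.0% of all tested rows. Rrp1b had 1116, 1110.1 and 1132 in vehicle and 891, 780 and 792 in 4-OHT libraries. This nucleolar protein of large subunit processing showed a tight vehicle group and no overlap, at a log2 change of -0.45 with SE 0.06 (adjusted p = 9.6e-06, limma). Noc2l, which escorts pre-60S particles out of the nucleolus and is also known as a histone acetyltransferase inhibitor, had 3491, 3239 and 3519 in vehicle and 3030.1, 2781 and 3013 in 4-OHT libraries, a log2 change of -0.22 with SE 0.05 (adjusted p = 0.0017, limma).

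The 3 subunits of the PeBoW complex, which processes the large subunit RNA and is a known Myc target, did not pass. Bop1 had 2353, 2307 and 2471 in vehicle and 2563, 2185 and 2337 in 4-OHT libraries, so that 4-OHT replicate 1 was the highest and 4-OHT replicate 2 the lowest of all 6, with a 95% interval of the log2 fold change from -0.13 to 0.11. The intervals of its partners Pes1 and Wdr12 ran from -0.14 to 0.08 and from -0.33 to 0.04. The log2 fold changes of the other 5, Nop2, Wdr74, Noc3l, Ddx18 and Nop16, were between -0.14 and 0.15, with Nop16 the highest.

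**Figure D3:**
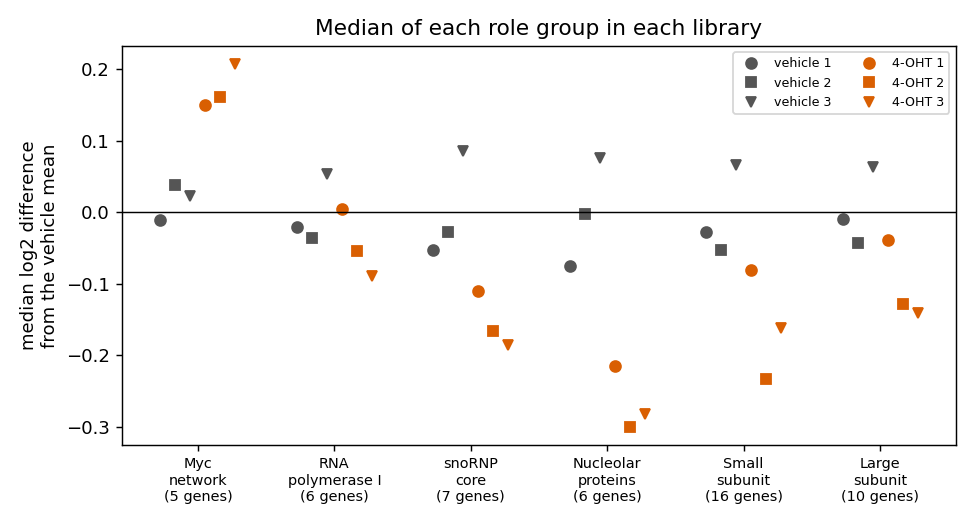
Median over each role group of the log2 difference between a library and the mean of the vehicle libraries, on the log2(normalized count + 1) scale; grey symbols are vehicle and orange symbols 4-OHT libraries, and the shape marks the replicate number. The 3 nucleolar protein medians of the 4-OHT libraries lie between -0.30 and -0.22, those of the Myc network lie above 0, and vehicle replicate 3 is the highest library in the other 5 groups.

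The libraries did not share the shift equally. Over the 45 members outside the Myc network, the median log2 difference from the vehicle mean was -0.09 in 4-OHT replicate 1 and -0.18 in both 4-OHT replicates 2 and 3. Among the vehicle libraries it was -0.04, -0.03 and 0.07, so vehicle replicate 3 stood above the others. Without vehicle replicate 3, 19 members fell and 7 rose past the threshold, and the 3 that then joined the rises were Max, Ubtf and Nop16. In that fit 5171 rows passed in all, 53.7% of them rises, against 5765 and 52.0% with all libraries. The median of all 50 members without vehicle replicate 3 was -0.09, against -0.13 with all libraries. 4-OHT replicates 2 and 3, the libraries with the lower medians, are also those with the most reads on the Paneth, ileal and immunoglobulin lists. The part of those reads in the result was not tested, and 4-OHT replicate 1 alone had a median of -0.08 over all 50 members.

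**Figure D4:**
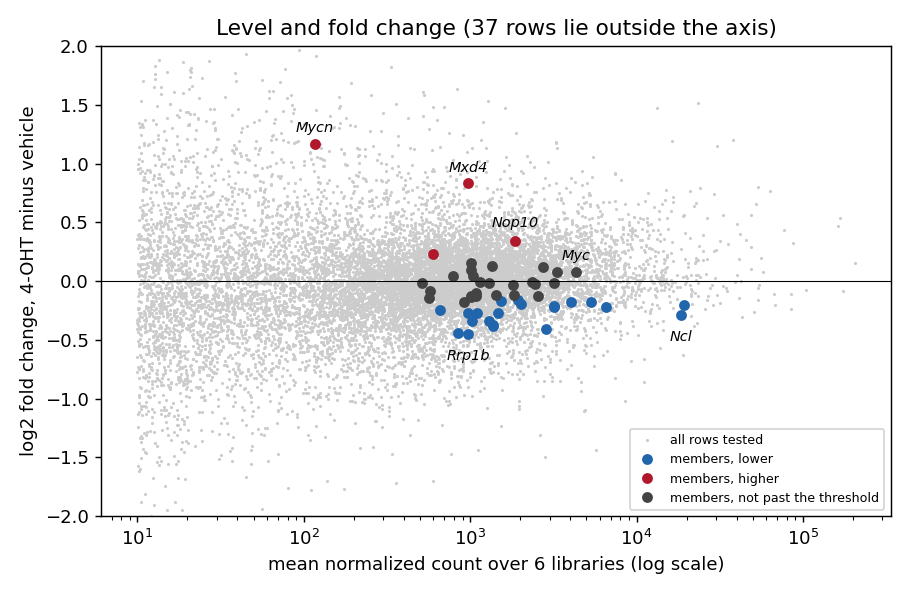
Mean normalized count over the 6 libraries (log axis) against the log2 fold change of 4-OHT over vehicle for all 13210 tested rows in grey and the 50 members in colour; 37 rows lie outside the vertical range. The members sit within the cloud of rows of similar level, the falls all above -0.5, with Mycn and Mxd4 apart from the others.

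Genes of the same processes outside the 50 members were counted in the same fit. In lists of 130 further ribosome biogenesis symbols, of which 124 were tested, 27 fell (21.8%) and 18 rose (14.5%), with a median log2 fold change of -0.04. The share that fell was thus near the 21.0% of all tested rows, and the share that rose lay below the 22.7% of all tested rows. The difference between these lists and the members was not tested. By process, 13 fell and 7 rose among 52 other large subunit genes, and 8 fell and 7 rose among 44 other small subunit genes. Among 13 other snoRNP and assembly genes 4 fell and 0 rose (limma). There were 0 rises also at an unadjusted p under 0.05 and by edgeR and DESeq2. Among 15 other RNA polymerase I genes 2 fell and 4 rose. All 4 of those rises were of subunits shared with other RNA polymerases.

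The named genes of these lists are the up to 2 largest changes in each direction. Tcof1, whose product treacle promotes transcription of ribosomal DNA, fell by 37.7%, from 3081 ± 113 in vehicle to 1919 ± 84.0 in 4-OHT libraries (mean and SD, n = 3), a log2 change of -0.68 with SE 0.05 (adjusted p = 2.2e-09, limma). In the large subunit list, Mdn1, the giant AAA ATPase that strips assembly factors from the pre-60S particle, fell (-0.52), as did Urb1 (-0.48), while Eif6 (0.37) and Sbds (0.35), which act together in the last cytoplasmic step of large subunit maturation, both rose. The small subunit list held falls of the RNA acetyltransferase gene Nat10 (-0.36) and of Tbl3 (-0.32) and rises of Utp23 (0.35) and Rrp7a (0.25). Ruvbl2, an ATPase of snoRNP assembly, fell by 0.43 on the log2 scale. In the RNA polymerase I list, Taf1d (-0.26) and Baz2a (-0.14) fell and the shared small subunits Polr2l (0.27) and Polr1d (0.18) rose. All of these passed an adjusted p of 0.05 (limma). With each library scaled to the same total, Utp23 (limma adjusted p = 0.074), Polr2l (0.058) and Polr1d (0.07) lost the threshold, and Utp23 also did with DESeq2 (DESeq2 adjusted p = 0.059). Utp23 further lost it without vehicle replicate 2 (limma adjusted p = 0.065), vehicle replicate 3 (0.067) or 4-OHT replicate 2 (0.11), Polr2l without vehicle replicate 2 (0.08) or 4-OHT replicate 3 (0.057), and Baz2a without vehicle replicate 1 (0.066), vehicle replicate 2 (0.074) or 4-OHT replicate 2 (0.084). Without both 4-OHT replicates 2 and 3, Utp23 (limma adjusted p = 0.23), Polr2l (0.22), Baz2a (0.14) and Polr1d (0.12) did not pass.

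Among 11 other genes of the Myc network, 6 fell and 4 rose (54.5% and 36.4%, against 21.0% and 22.7% of all tested rows). Mxd1, a relative of Mxd4 known from differentiated epithelium, had 5123, 5068 and 4221 in vehicle and 6342, 7495 and 7108 in 4-OHT libraries, a log2 change of 0.54 with SE 0.07 (adjusted p = 1.6e-06, limma) without overlap. Mxd3, the family member linked to dividing cells, fell from 128 ± 18.9 in vehicle to 83.5 ± 7.74 in 4-OHT libraries (mean and SD, n = 3), a log2 change of -0.60 with SE 0.16 (adjusted p = 0.0044, limma). Mycl, the third Myc gene, rose by 0.30, and Mlxipl, the glucose-responsive factor ChREBP, fell by 0.76 on the log2 scale. The Mxd genes named here were thus divided, with Mxd4 and Mxd1 higher and Mxd3 lower. Mxi1, the Max-binding repressor described above, did not pass the threshold. The directions of Mxd4, Mxd1 and Mxd3 held in each of the 17 alternatives. Without both 4-OHT replicates 2 and 3, Mxd3 weakened to -0.46 and did not pass the threshold.

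Of 23 tested Myc targets outside ribosome production, 13 fell (56.5%) and 3 rose (13.0%), with a median log2 fold change of -0.15. Of all tested rows 21.0% fell and 22.7% rose. Shmt2, which supplies one-carbon units in mitochondria, fell by 1.11 on the log2 scale, from 6601 ± 460 in vehicle to 3064 ± 148 in 4-OHT libraries (mean and SD, n = 3, limma adjusted p = 6.6e-12), and Impdh2, the guanine nucleotide synthesis enzyme, by 0.48. The rises past the threshold with the largest size were Eif4a1 (0.19) and Ccnd2 (0.15), and both stayed above 0 in the 17 alternatives and past the threshold in 15. Both lost it under quantile normalization (limma adjusted p = 0.093 and 0.19), Ccnd2 also with the same total (0.16) and Eif4a1 without both 4-OHT replicates 2 and 3 (0.067). The proliferation genes, with all 10 lower and a median of -0.63, moved in the same direction as these targets and the members, and their part in the result was not tested.

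**Figure D5:**
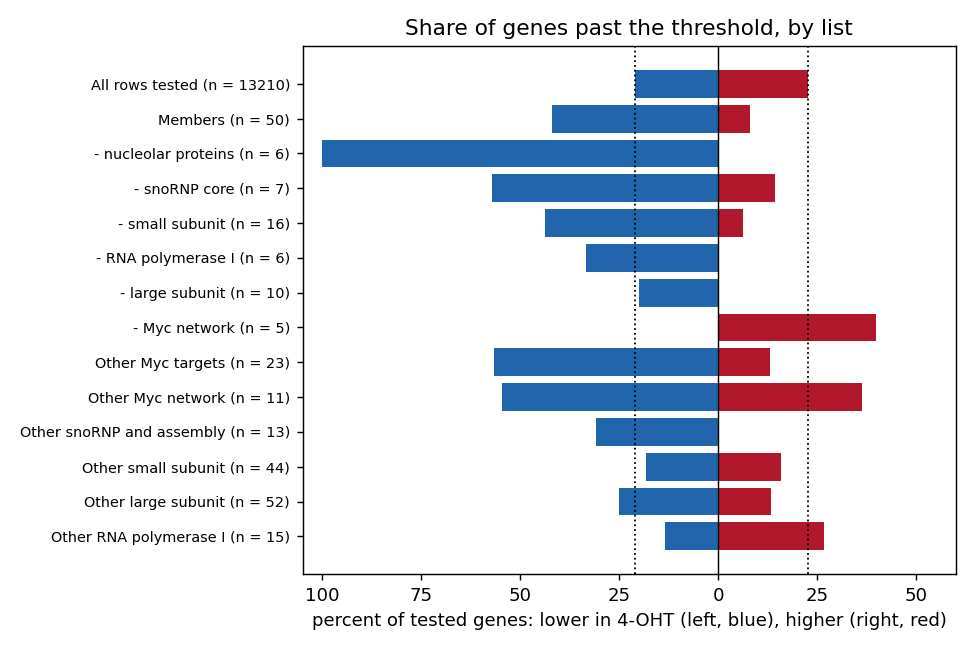
Percent of the tested genes of each list that fell (blue, to the left) or rose (red, to the right) past an adjusted p of 0.05 in 4-OHT libraries; dotted lines mark the 21.0% and 22.7% of all 13210 rows. The nucleolar proteins (6 of 6), the snoRNP core (4 of 7) and the other Myc targets (13 of 23) extend furthest to the left, and on that side the further large and small subunit lists end near the dotted line.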

How the data were processed

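RNA from 3 vehicle and 3 4-OHT organoid samples was sequenced, and the groups and replicate numbers were taken from the sample titles. The values deposited by the authors are normalized counts, a signal made of reads per gene divided by 1 size factor per library. The submitters' processing notes name STAR, DESeq2 and GRCm39 without versions. The counting tool and the annotation are not given in the sources used here, and the paper supplied does not describe this experiment. Dividing the values of a library by its smallest step gave whole reads for 100% of them (tolerance 0.1 reads), which come to 15804709 to 26957612 reads per library. Replicates differed by 3.49 to 6.44 times counting variance, so none is a copy.

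Values were compared with limma-trend 3.58.1 (R 4.3.3) on log2(normalized count + 1) over 13210 rows with a mean of at least 10, two-sided, with Benjamini-Hochberg adjustment over all of them and a threshold of 0.05. Fold changes are on that scale, and 95% intervals come from the same fit. The script was tested on simulated counts. Members and gene lists were chosen with earlier results of these data known, so lists are described by counts and medians only. Named genes were, in each role group, the 2 largest and the smallest change and the highest mean (all genes of the Myc network and RNA polymerase I), and in the other lists the 2 largest rises and falls past the threshold. Every other member is given by its change or range, and Ncl was described more fully after its values were seen. Alternatives used other pseudocounts (0.1, 10), filters (none, 50), scalings, the replicate block, left-out libraries, edgeR 4.0.16 and DESeq2 1.42.0. The promoter windows are in GRCm38.p6 and were matched by symbol, since the values carry no coordinates. The orientation of the windows was checked against GENCODE transcripts, and in 46 of 56 windows the bases after the start occurred in a transcript of the gene on its own strand.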

Additional observations from a re-analysis of the deposited data

How the results depend on the processing

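Across the alternatives with all 6 libraries, the members that fell numbered 21 to 29 and those that rose 3 to 5, and no count of calls over all genes differed from 5765 by more than 1.5 times (3848 to 6007 over all 17). Scaling each library to the same total lowered all genes (median log2 fold change -0.08, with 36.9% of calls higher against 52.0%) and moved the median of the members to -0.20, with 29 falls and 5 large subunit genes past the threshold. edgeR and DESeq2 on the recovered reads gave 21 falls and 4 rises each. With the replicate block 22 members fell and 4 rose, and 5637 genes passed overall. Same-numbered libraries had correlations of deviations between -0.02 and 0.03, which gives no sign of pairing, and not every sample correlated best with its own number.

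With 1 library left out, calls over all genes numbered 4946 to 5636. Among the members, falls numbered 17 to 24 and rises 3 to 7 (7 without vehicle replicate 3). Small subunit calls numbered 5 to 10 (5 without 4-OHT replicate 3, against 8). Calls among other RNA polymerase I genes numbered 2 to 6 (3 without vehicle replicate 1, 2 without vehicle replicate 2). Without both 4-OHT replicates 2 and 3, only 4-OHT replicate 1 is left to set against the vehicle mean. Its median log2 differences were -0.11 for the snoRNP core, -0.22 for nucleolar proteins, -0.08 for the small and -0.04 for the large subunit. That comparison has fewer samples, and for the other changes the cause was not tested.

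Reversed log2 fold changes, none past the threshold in either fit, were Polr1e at 0.0168 with quantile normalization and Rrp9 (-0.0278) and Ltv1 (-0.0322) with the same total. With 1 library left out, Polr1c ranged from -0.0750 to 0.0348, Polr1e from -0.0446 to 0.0025, Rrn3 from -0.0262 to 0.0207, Nhp2 from -0.0559 to 0.0669, Utp4 from -0.0558 to 0.0388, Rrp9 from -0.0098 to 0.0994, Bop1 from -0.0723 to 0.0428 and Pes1 from -0.0581 to 0.0223. Without both 4-OHT replicates 2 and 3 they were Polr1c (0.0384), Polr1e (0.0014), Rrn3 (0.0059), Nhp2 (0.0092), Utp4 (0.0741), Tsr1 (0.0632), Ltv1 (-0.0573), Bop1 (0.1094), Pes1 (0.0156) and Wdr12 (0.0039). Of 850 values for single members, 25 lost the threshold, 26 gained it and 25 reversed. Depth limits Mycn most.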
